A study of Mus musculus with 12 samples.

Results

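The genes examined were 10 genes of macrophages and neutrophils, Lyz2, Cd68, Csf1r, Adgre1, Cd14, Itgam, S100a8, S100a9, Tyrobp and Fcer1g, in RNA of sorted group 3 innate lymphoid cells (ILC3s). They were listed by name as myeloid genes, with earlier results of these data known. All 10 were found among the 23284 genes of the table of FPKM (fragment counts of a transcript scaled to its length and by a factor for its library). ILC3s are lymphocytes without antigen receptors that make IL-22 and IL-17 in the gut wall. The cells came from the small intestine of HR-1 mice, a hairless strain with a normal immune system, at an age of 18 weeks. Of the 12 libraries, 6 came from offspring nursed on milk of mothers whose diet was rich in palmitic acid (PA milk), the others from offspring on normal milk (ND), and from each the intraepithelial layer (IEL) and the lamina propria (LP) were sampled. This gave 4 groups of 3 libraries, PA milk IEL, ND IEL, PA milk LP and ND LP. The labels do not say whether a library is 1 mouse or a pool, or whether an IEL and an LP library share mice, so p-values measure the spread between these libraries, which may be partly technical.

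Macrophages and neutrophils are phagocytes of the myeloid lineage. Macrophages depend on the receptor CSF1R for survival, while neutrophils carry large amounts of the calcium-binding proteins S100A8 and S100A9, which pair as calprotectin, an antimicrobial protein used as a marker of gut inflammation. TYROBP (DAP12) and FCER1G (the Fc receptor gamma chain) are signalling adaptors of activating receptors and are found in NK cells, dendritic cells and mast cells as well as in phagocytes. The sort for ILC3s took lineage-negative cells that carried Thy1.2, CD25 and Nrp1, together with CD4 in the description of the sort and CD45 in the description of the gating plot, and the lineage cocktail described for these cells holds antibodies to CD11b, the product of Itgam, and to Gr-1, a surface antigen of neutrophils. Such a gate is set against myeloid cells by their surface proteins.

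S100a8 and S100a9 lie close together on chromosome 3 and were the members with the most similar levels across libraries, so their promoters are shown. Each window spans 250 bases before and 50 after the start that RefSeq gives on GRCm38.p6. The S100a8 window is chr3:90668821-90669120 on the plus strand, and the S100a9 window is chr3:90695672-90695971 on the minus strand. Capitals mark the letters GAGGAA, the core bound by PU.1, the pattern TTNNGNAA of C/EBP factors, and TATAAA, each searched on both strands.
S100a8: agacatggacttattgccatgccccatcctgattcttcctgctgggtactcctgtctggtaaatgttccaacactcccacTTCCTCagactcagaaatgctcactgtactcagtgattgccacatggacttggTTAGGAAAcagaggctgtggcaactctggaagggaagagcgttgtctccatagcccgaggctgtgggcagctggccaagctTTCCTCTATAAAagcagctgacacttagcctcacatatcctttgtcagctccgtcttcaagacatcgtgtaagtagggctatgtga
S100a9: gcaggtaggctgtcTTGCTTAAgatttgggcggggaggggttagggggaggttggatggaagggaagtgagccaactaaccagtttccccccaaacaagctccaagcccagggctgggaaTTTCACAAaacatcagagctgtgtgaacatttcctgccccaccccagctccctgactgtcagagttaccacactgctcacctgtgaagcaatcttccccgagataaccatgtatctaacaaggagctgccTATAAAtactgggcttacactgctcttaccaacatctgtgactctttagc
The S100a8 window held 2 matches to the PU.1 letters, 1 to the C/EBP pattern and 1 to TATAAA, the last directly behind a PU.1 match. The S100a9 window held 0, 2 and 1. Of 32851 promoter windows of this length, 28.3% held the PU.1 letters, 40.7% the C/EBP pattern and 13.6% TATAAA on either strand, so a match is common and describes letters only. Of the 10 members, 6 had a window that was searched.

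Lyz2 encodes the lysozyme of macrophages and neutrophils, and its neighbour Lyz1 the lysozyme of Paneth cells in the intestinal crypts. Both lie on the minus strand of chromosome 10 of GRCm38, Lyz2 at 117277331 to 117282321 and Lyz1 at 117287797 to 117292868. Their coding sequences, 444 bases each without the stop codon in GENCODE vM21, were identical at 422 positions (95.0%), with 22 differences and a longest shared run of 118 bases. The first 60 coding bases of both show how few positions tell the genes apart, with the 2 that differ in capitals, at chr10:117282183-117282242 for Lyz2 and chr10:117292779-117292838 for Lyz1.
Lyz2: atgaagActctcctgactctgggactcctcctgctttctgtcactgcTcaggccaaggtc
Lyz1: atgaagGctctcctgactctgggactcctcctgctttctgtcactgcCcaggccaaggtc
Fragments that fall in a shared stretch can be assigned to either gene, so the split of FPKM between the lysozymes is uncertain.

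Every library held RNA of some of these genes, but not of all of them. Lyz2, Tyrobp, Fcer1g, Cd68, S100a8 and S100a9 reached at least 1 FPKM in 12 of 12 libraries. Cd14 and Adgre1 did so in 9, Csf1r in 7 and Itgam in 4, and Itgam was listed at 0 in 6. By its mean of log2(FPKM + 1) Lyz2 came first, followed by Tyrobp, Fcer1g, Cd68, S100a8, S100a9, Cd14, Adgre1, Csf1r and Itgam. No pair of neighbours in this order differed by more than the SD of its difference over the libraries. Lyz2 stood above Tyrobp in 6 of 12 libraries, with a mean log2 difference of 0.38 ± 2.15 (SD, n = 12), and Adgre1 above Csf1r in 6 of 12. The steadiest step was S100a8 over S100a9, in 11 of 12 libraries by a log2 difference of 0.80 ± 0.81. Among all genes of a library sorted by FPKM, the median place was 171.5 for Lyz2 and 223.5 for Tyrobp, and Lyz2 was the gene in place 4 in ND LP replicate 1.

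**Figure D1:**
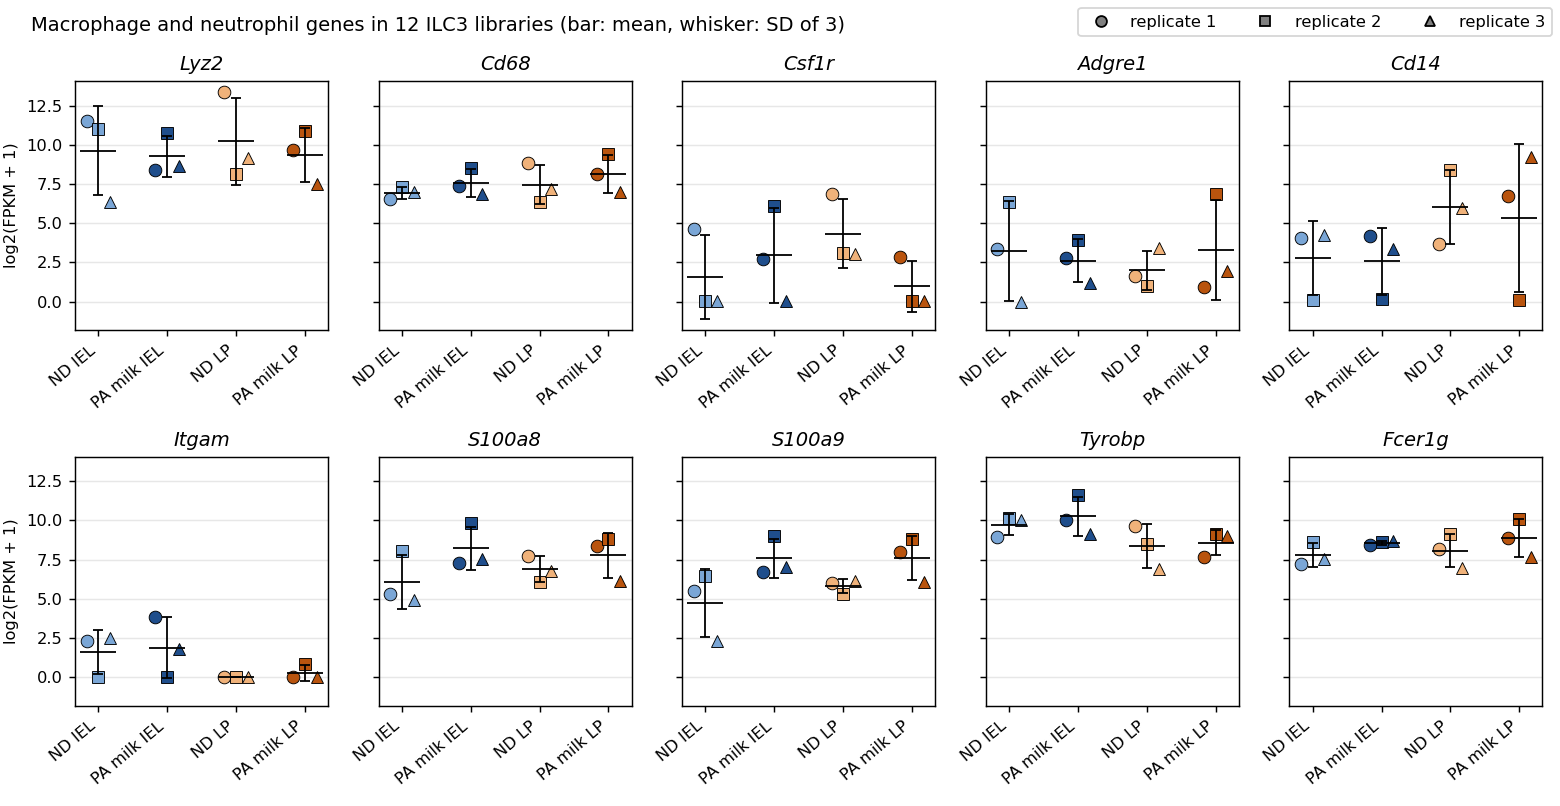
The level of each member as log2(FPKM + 1) in 4 groups of 3 libraries (circle, square and triangle are replicates 1, 2 and 3, the bar is the mean and the whisker the SD). The 4 groups overlap for most genes, and in the ND IEL, PA milk IEL and PA milk LP groups the square of replicate 2 stands at or near the bottom for Cd14.

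Of the macrophage genes, Lyz2 varied most in absolute level. It measured 2922, 2060 and 82.3 FPKM in ND IEL, 334, 1725 and 405 in PA milk IEL, 10375.5, 281 and 573 in ND LP and 808, 1917 and 181 in PA milk LP. Cd68, a glycoprotein of lysosomes that is abundant in macrophages, was steadier, at 90.6, 157 and 125 FPKM in ND IEL, 162, 371 and 113 in PA milk IEL, 448, 80.4 and 145 in ND LP and 278, 672 and 124 in PA milk LP. The highest library was ND LP replicate 1 for Lyz2 and PA milk LP replicate 2 for Cd68, and all 4 groups overlapped for both genes.

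Csf1r and Cd14 were close to all or none. Csf1r, the receptor for the growth factors CSF1 and IL-34, had 24.3, 0.021 and 0.018 FPKM in ND IEL, 5.47, 67.1 and 0.043 in PA milk IEL, 115, 7.46 and 7.27 in ND LP and 6.09, 0.025 and 0.025 in PA milk LP. In reads recovered from the tables the low values were 1 or 2 reads, below the floor of 3 reads under which values were not ordered, and PA milk IEL replicate 2 had 3376 reads. Cd14, the co-receptor that hands lipopolysaccharide to TLR4, had 15.3, 0.060 and 18.1 FPKM in ND IEL, 17.4, 0.11 and 9.06 in PA milk IEL, 11.8, 341 and 61.2 in ND LP and 104, 0.071 and 592 in PA milk LP. Its 3 values under the floor were those of replicate 2 in ND IEL, PA milk IEL and PA milk LP. Adgre1, which encodes the macrophage antigen F4/80, was highest in PA milk LP replicate 2 (118 FPKM) and ND IEL replicate 2 (79.8 FPKM), between 0.948 and 13.9 FPKM in 9 others and listed at 0 in ND IEL replicate 3.

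Itgam, the alpha chain of the integrin that the CD11b antibody of the sort binds, was the lowest member. It had 3.96, 0 and 4.64 FPKM in ND IEL, 13.6, 0 and 2.44 in PA milk IEL, 0, 0 and 0.022 in ND LP and 0, 0.815 and 0 in PA milk LP. All 4 libraries at 1 FPKM or more were IEL libraries. Its partner chain Itgb2, which lymphocytes also use, was at 1 FPKM or more in 11 libraries with a median of 42.8 FPKM.

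S100a8 had 38.8, 269 and 29.3 FPKM in ND IEL, 156, 904 and 187 in PA milk IEL, 214, 67.3 and 111 in ND LP and 331, 457 and 69.1 in PA milk LP. S100a9 had 43.5, 88.0 and 3.94 FPKM in ND IEL, 104, 513 and 132 in PA milk IEL, 62.8, 39.5 and 70.2 in ND LP and 250, 449 and 65.3 in PA milk LP. Both were highest in PA milk IEL replicate 2 and next highest in PA milk LP replicate 2, and lowest in ND IEL replicate 3. Across the 12 libraries, Pearson's r of their log2(FPKM + 1) was 0.89, the highest of the 45 pairs of members, of which 27 had an r above 0. These correlations describe libraries that share their group and their depth, and were not tested.

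Of the adaptors, Tyrobp had 498, 1147 and 1067 FPKM in ND IEL, 1029, 3144 and 573 in PA milk IEL, 807, 366 and 119 in ND LP and 199, 555 and 504 in PA milk LP. Fcer1g had 147, 394 and 186 FPKM in ND IEL, 341, 398 and 404 in PA milk IEL, 284, 552 and 125 in ND LP and 466, 1079 and 205 in PA milk LP. The levels of these adaptors had little in common across libraries, with an r of 0.20. The 4 highest values of Tyrobp were those of IEL libraries, whereas the highest library of Fcer1g was PA milk LP replicate 2.

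The libraries themselves differed widely. They held 8.75 to 14.57 M recovered reads, but between 4390 and 11378 genes at 1 FPKM or more, and those with the fewest genes were PA milk IEL replicate 2 (4390), PA milk LP replicate 2 (5637) and ND IEL replicate 2 (7863). ILC3 genes were low or missing in the same libraries. Of 15 ILC3 genes, PA milk IEL replicate 2 had 1, PA milk LP replicate 2 had 3 and ND IEL replicate 2 had 4 at 1 FPKM or more, against 15 in ND IEL replicate 3 and ND LP replicate 2. Thy1, which encodes the surface marker of the gate, was listed at 0 in 5 of 12 libraries, namely these 3, PA milk LP replicate 1 and ND LP replicate 1. Defining genes of the labelled cell type were thus present in some libraries and at or near 0 in others. In bulk RNA, fewer cells of a type and less RNA per cell cannot be told apart.

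**Figure D2:**
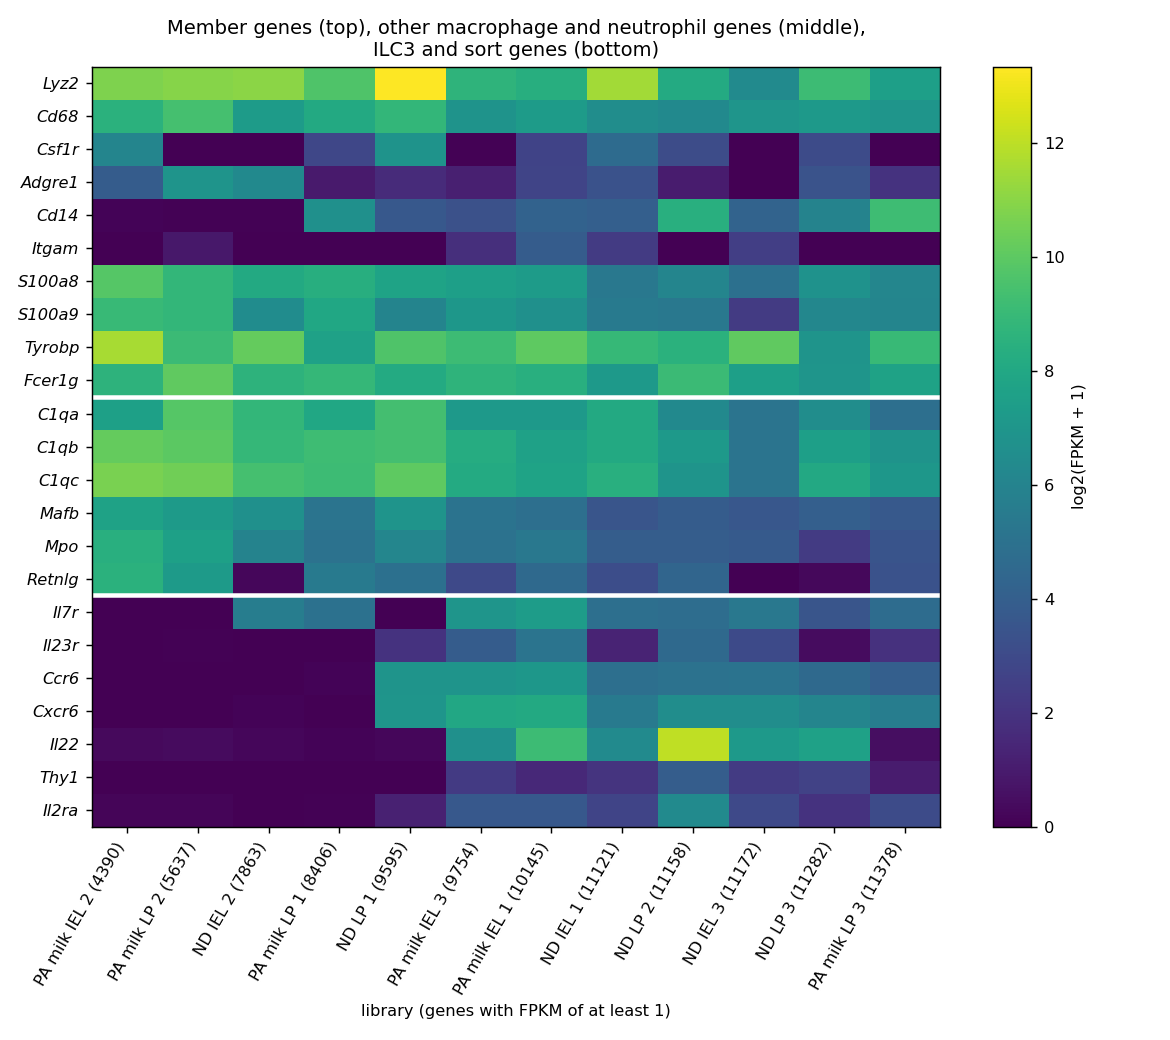
Levels as log2(FPKM + 1) of the members, of 6 other macrophage and neutrophil genes and of 7 genes of ILC3s and the sort, with the 12 libraries ordered by the number of genes at 1 FPKM or more. In the library with 4390 genes S100a8, S100a9 and Tyrobp are at their highest while Ccr6 and Cxcr6 are at or near 0.

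Among the members, S100a8 followed the number of genes detected most closely. Over 12 libraries its log2(FPKM + 1) had a Pearson's r of -0.90 with the number of genes (permutation p = 1e-05, the smallest that 100000 permutations can give, adjusted 2e-04) and a Spearman's rho of -0.88 (permutation p = 0.00033, adjusted 0.0033, two-sided, adjusted over 20 values for 10 genes). Without the 2 libraries farthest from the median, both numbered 2 in PA milk, r was -0.85, and within the layers it was -0.92 in IEL and -0.92 in LP (n = 6 each). S100a9 (r = -0.77, adjusted permutation p = 0.0127) and Cd68 (r = -0.77, adjusted permutation p = 0.0161) were also higher where fewer genes were detected, with r of -0.56 and -0.55 without those 2 libraries. Fcer1g had an r of -0.66 (adjusted permutation p = 0.0451) and -0.60 without them, and its Spearman's rho was -0.62 (adjusted permutation p = 0.062). Cd14 went the other way, with an r of 0.76 (adjusted permutation p = 0.0161) and 0.58 without them. Csf1r had no such relation (r = -0.14, permutation p = 0.678). These permutations ran over all 12 libraries without regard to diet or layer, so the relations can include differences between groups. The relation was computed for the members only, so it is not known whether they differ in it from the other genes of these libraries. Whether the number of genes detected had a part in any difference between groups was not tested.

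**Figure D3:**
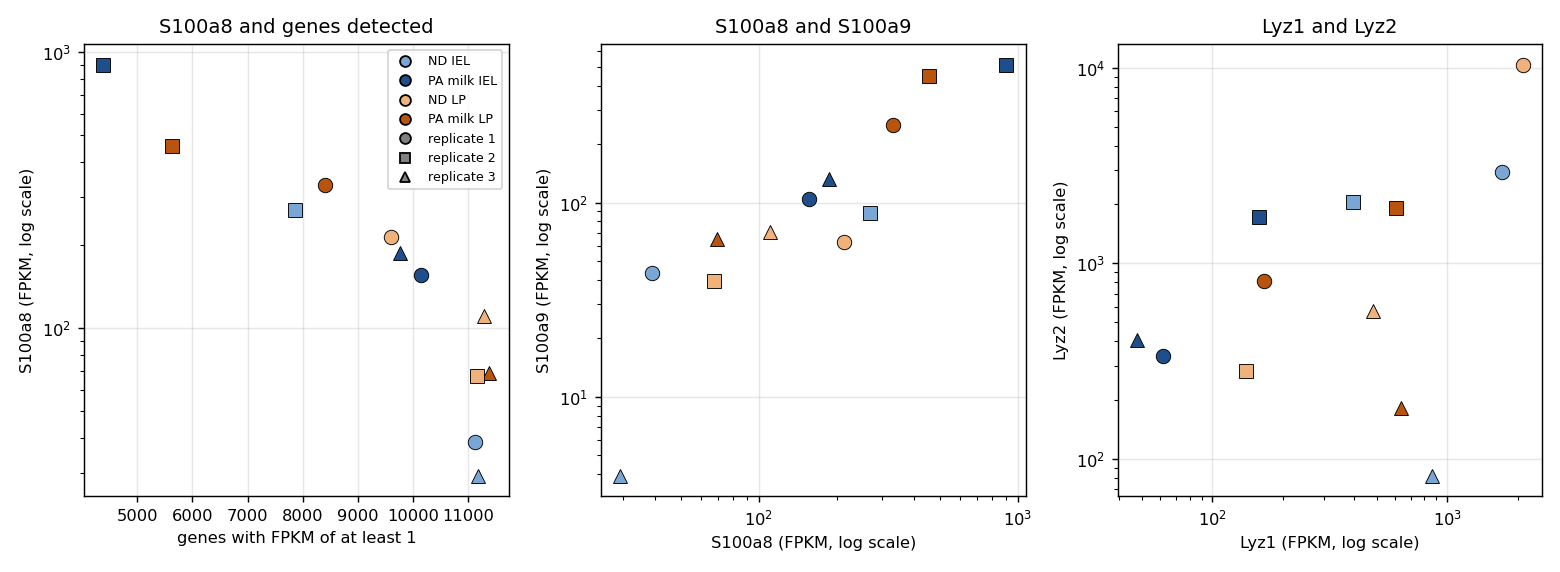
Each point is 1 of 12 libraries. S100a8 (FPKM, log scale) is highest at 4390 genes (904 FPKM) and lowest at 11172 genes (29.3 FPKM) (left). At 11282 and 11378 genes it is at 111 and 69.1 FPKM. S100a9 follows S100a8 (middle), and Lyz2 and Lyz1 are spread widely, with ND LP replicate 1 highest for both (right).

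Other macrophage and neutrophil genes showed where the members sat. Summed over 25 macrophage genes, FPKM ranged from 1530 to 5290 in PA milk IEL, 1150 to 2986 in ND IEL, 1173 to 5753 in PA milk LP and 928 to 4583 in ND LP. Summed over 21 neutrophil genes it ranged from 137 to 1069 in PA milk IEL, 47.7 to 226 in ND IEL, 183 to 883 in PA milk LP and 111 to 748 in ND LP. The ranges of the groups overlapped for both lists, and the highest library was PA milk LP replicate 2 for the macrophage genes and PA milk IEL replicate 2 for the neutrophil genes. C1qc and C1qb, chains of the complement component made by tissue macrophages, reached 1636 and 1173 FPKM in PA milk IEL replicate 2 and were lowest, at 34.5 and 34.6 FPKM, in ND IEL replicate 3. Cd63, which encodes a tetraspanin of lysosomes and is expressed by many cell types, ranged less widely, from 137 to 980 FPKM. Mpo, the myeloperoxidase of neutrophil granules, ranged from 4.03 to 345 FPKM and Retnlg from 0 to 363, both highest in PA milk IEL replicate 2. Of the genes that define macrophages, Mertk was at 0.043 FPKM in that library, so the list was not uniformly high in it.

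**Figure D4:**
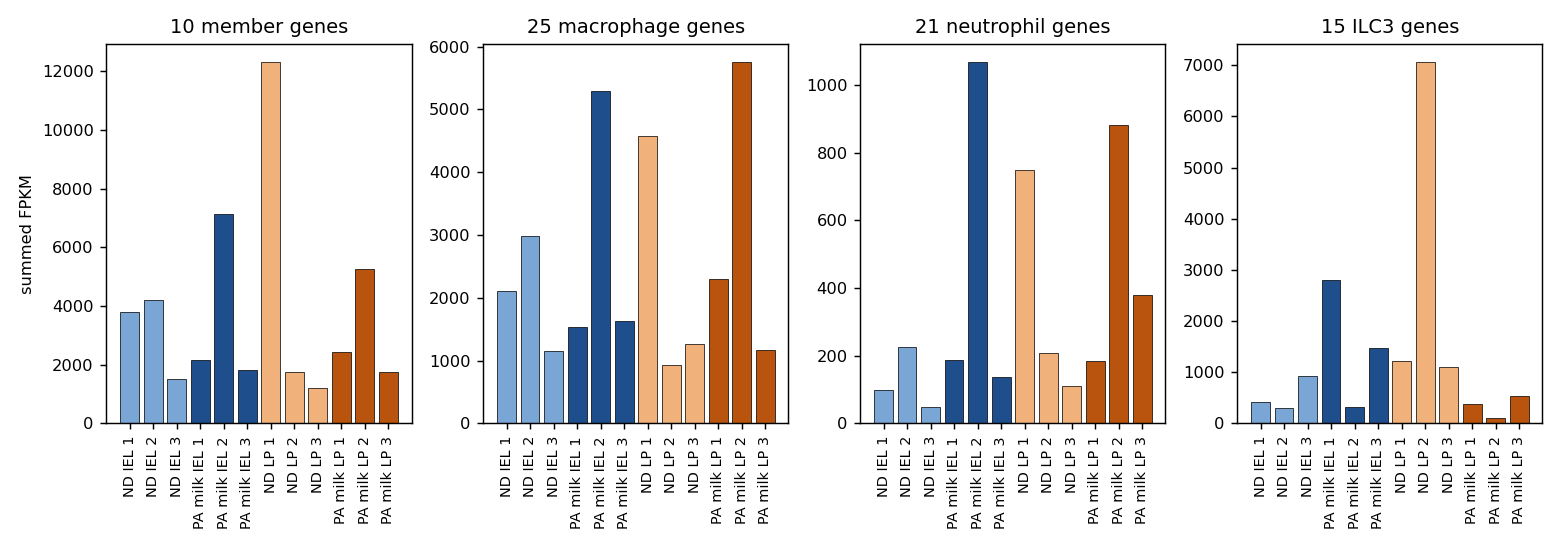
Summed FPKM of 4 gene lists in each of the 12 libraries (bars start at 0, colours are the 4 groups). The member sum is highest in ND LP replicate 1 (12320 FPKM, most of it Lyz2), and the ILC3 sum is highest in ND LP replicate 2 (7061 FPKM).

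The genes most like 4 members were found over 12 libraries by Pearson's r of log2(FPKM + 1), given as a description. For Lyz2 they were Apoe (0.93), C1qa (0.88) and Aif1 (0.88), all known from macrophages. For S100a8 they were Slc40a1 (0.99), the iron exporter ferroportin, Trf (0.96), which encodes transferrin, and Lpl (0.95), a lipase. For Tyrobp they were Pld4 (0.92), Irf8 (0.89) and Ctsh (0.88), and for Fcer1g Las1l (0.84), Cbfb (0.83) and Ncoa4 (0.83).

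The first comparison asked whether PA milk went with other levels of these genes in the IEL. No member passed the test (limma on log2(FPKM + 1), adjusted p under 0.05, 0 of 10 members, against 0% of 12502 genes tested). S100a9 was 2.84 ± 1.03 (SE) higher on the log2 scale in PA milk, and its 3 PA milk libraries, from 104 FPKM up, did not overlap the 3 ND libraries, of 88.0 FPKM at most. Its unadjusted limma p was 0.0142, its adjusted p 0.947 and its exact permutation p 0.1 (two-sided), the smallest that 3 against 3 allow. S100a8 was 2.12 ± 0.94 higher with overlapping groups, an unadjusted limma p of 0.0392, an adjusted p of 0.947 and an exact permutation p of 0.3. Thus 2 of 10 members had an unadjusted p under 0.05, against 3.58% of all genes tested, and 1 had groups that did not overlap, against 8.19%. By limma-voom on recovered reads 0 members were called and 0 had an unadjusted p under 0.05.

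The calprotectin differences in IEL moved with libraries already described. Without PA milk IEL replicate 2 the log2 difference of S100a8 was 1.32 ± 0.97 and that of S100a9 2.13 ± 1.08, and without ND IEL replicate 3 they were 1.53 ± 1.02 and 1.62 ± 0.94. Without the 3 libraries of fewest genes, a choice made after seeing the data, they were 2.31 ± 0.74 and 2.99 ± 0.96, each with an adjusted p of 1 by limma. Over all alternatives the adjusted p was between 0.496 and 1 for S100a8 and between 0.438 and 1 for S100a9. Of the 10 members 7 were higher in PA milk, with a median log2 difference of 0.59, beside a median of -0.30 over all genes tested. Of the neutrophil genes tested 10 of 17 were higher (median 0.28), and 13 of 23 macrophage genes (median 0.10), with 0 called in either list. Lyz2 differed by -0.37 ± 1.33, while Lyz1 differed by -3.41, from 396 to 1707 FPKM in ND IEL and 47.9 to 157 in PA milk IEL, without overlap (adjusted p = 0.947 by limma). ILC3 genes stood higher in PA milk IEL for 11 of 15 genes (median 0.99, 0 called), and their part in these differences was not tested.

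In the LP, PA milk against ND again gave no called member (0 of 10 by limma, against 0% of genes tested) and 0 members with an unadjusted p under 0.05, against 4.7% of all genes tested. Csf1r was the 1 member whose groups did not overlap, against 9.57% of all genes tested. It was -3.36 ± 1.73 on the log2 scale, with all 3 PA milk libraries under all 3 ND libraries (unadjusted limma p = 0.0697, adjusted p = 0.979, exact permutation p = 0.1). The gap between the groups was small, from 6.09 FPKM in PA milk LP replicate 1 to 7.27 in ND LP replicate 3. By limma-voom its log2 difference was -6.85 ± 2.98 with an adjusted p of 0.83, within a range of 0.621 to 1 over all alternatives. S100a8 (0.90 ± 0.94) and S100a9 (1.78 ± 1.03) had higher means in PA milk, with adjusted p-values of 0.979 by limma. Without PA milk LP replicate 2 these differences were 0.37 ± 1.05 and 1.18 ± 1.13, and with any 1 library left out they lay between 0.37 and 1.72 for S100a8 and between 1.18 and 2.56 for S100a9. That of Csf1r lay between -4.29 and -2.10, the latter without ND LP replicate 1.

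In LP 7 of 10 members were higher in PA milk, with a median log2 difference of 0.49 beside -0.36 over all genes tested. Of 17 neutrophil genes 9 were higher (median 0.06) and of 23 macrophage genes 14 (median 0.18), again with 0 called. An unadjusted limma p under 0.05 was found for 5 neutrophil and 0 macrophage genes, against 4.7% of all genes tested. Groups were separate for 2 neutrophil genes and 1 macrophage gene, against 9.57%. Of the most abundant neutrophil genes, Mpo (1.22 ± 1.30) and Retnlg (2.18 ± 1.64) were higher in PA milk, each with an adjusted p of 0.979 by limma. Il1b, which encodes the cytokine IL-1beta, was lower, with -4.51 ± 1.61 (unadjusted p = 0.0127 and adjusted p = 0.979 by limma). Its groups overlapped, with 72.8 FPKM in PA milk LP replicate 3 and 48.4 and 60.2 in ND LP replicates 2 and 3. ILC3 genes stood lower in PA milk LP, with 14 of 15 below ND, a median of -1.77 and 0 called. Of the 15, 6 had an unadjusted limma p under 0.05, against 4.7% of all genes tested, and 4 had separate groups, against 9.57%. Their part in the differences of the members was not tested. The difference of the diet effect between LP and IEL was called for 0 members, with an adjusted limma p of 1 for each, and for 0% of genes tested. It was -4.74 ± 2.44 for Csf1r and -1.06 ± 1.46 for S100a9.

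**Figure D5:**
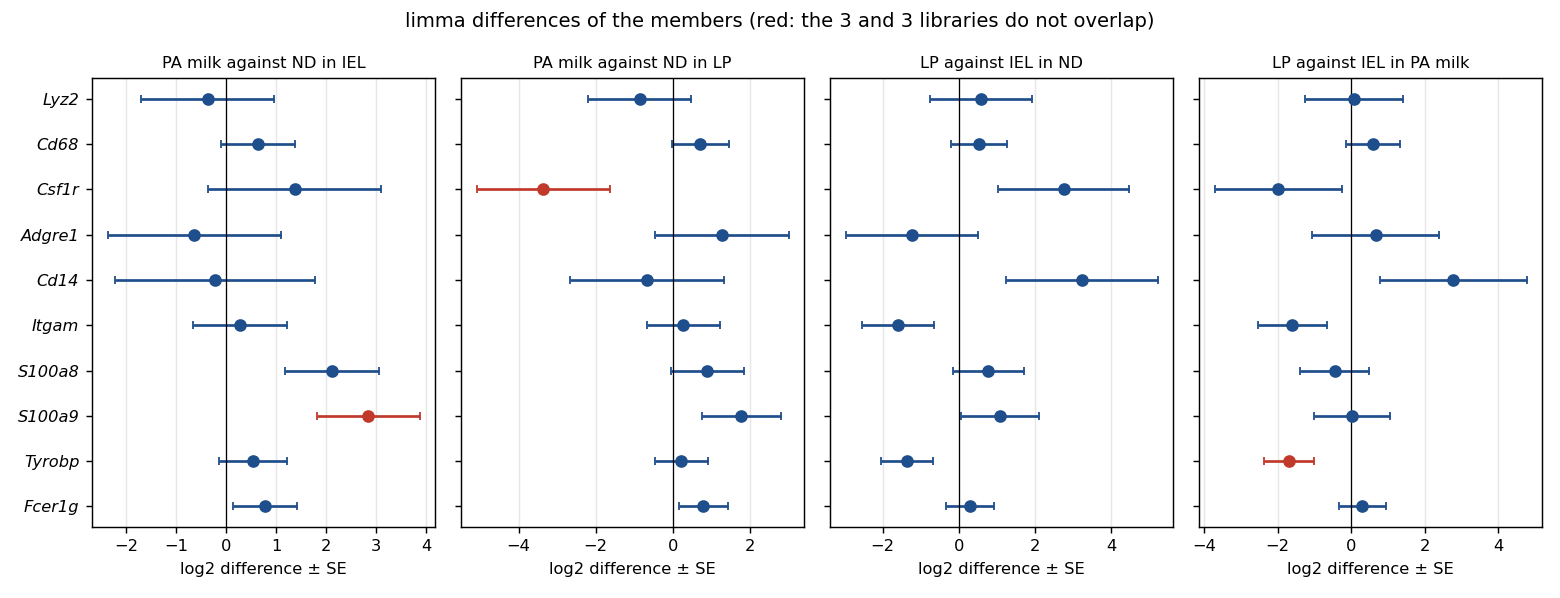
Log2 differences of the 10 members by limma with their SE in 4 comparisons (red where the 3 and 3 libraries do not overlap). The separate groups are those of S100a9 for PA milk in IEL, Csf1r for PA milk in LP and Tyrobp between the layers in PA milk, and none of the 40 differences passed an adjusted p of 0.05.

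LP was compared with IEL within each diet, to see whether the layer of origin went with the myeloid RNA. These comparisons share libraries with those of diet. In ND, limma called 0 of 10 members, against 0.032% of genes tested, and 0 had an unadjusted p under 0.05, against 6.63%. No member had separate groups, against 19.3% of all genes tested. Of the members 7 were higher in LP, with a median of 0.55 beside 0.09 over all genes tested. Cd14 was 3.23 ± 2.0 higher (adjusted p = 0.922 by limma) and Tyrobp differed by -1.37 ± 0.68 (adjusted p = 0.81 by limma). The difference of Cd14 was 1.88 without ND IEL replicate 2 and 2.03 without ND LP replicate 2, and that of Tyrobp -0.64 without ND LP replicate 3. The 4 genes called were Madcam1, Ccl21a and Clu, higher in LP, and Apoa1, lower in LP, and their number was between 0 and 113 under the alternatives.

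In PA milk, limma called 0 of 10 members between the layers, against 0.144% of genes tested. Tyrobp was lower in LP by a log2 difference of -1.68 ± 0.69, with all 3 LP libraries (555 FPKM at most) under all 3 IEL libraries (573 FPKM at least). Its unadjusted limma p was 0.0261, its adjusted p 0.427 and its exact permutation p 0.1. It was the 1 member with an unadjusted p under 0.05, against 10.6% of genes tested, and the 1 with separate groups, against 8.57%. Without PA milk IEL replicate 2 the difference was -1.005 ± 0.707. The median of the members was 0.06, beside 0.03 over all genes tested. Cd14 was 2.78 ± 2.0 higher in LP, with replicate 2 near 0 in both layers, and Itgam -1.60 ± 0.94. Both differences changed in size when single libraries were left out. The difference of Cd14 was 5.40 ± 1.68 without PA milk LP replicate 2 and 0.85 without PA milk LP replicate 3. In the first case its unadjusted limma p was 0.00665 and its adjusted p 0.141, and over all alternatives its adjusted p was between 0.13 and 0.914. That of Itgam was -0.60 without PA milk IEL replicate 1 and -2.54 without PA milk IEL replicate 2.

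Genes whose products work with the adaptors were set beside Tyrobp. Siglech, a receptor of plasmacytoid dendritic cells that signals through TYROBP, had 294, 414 and 143 FPKM in PA milk IEL and 0.14, 0.083 and 18.7 in PA milk LP, a log2 difference of -6.49 ± 1.44 (adjusted p = 0.127 by limma). In ND it was -3.60 ± 1.44 (adjusted p = 0.605 by limma). Irf8, a transcription factor of dendritic cells and macrophages, differed by -1.57 ± 0.66 in PA milk and -1.32 ± 0.66 in ND, with adjusted limma p-values of 0.428 and 0.806. Trem2, a lipid-binding receptor of macrophages that signals through TYROBP, had 339 FPKM in PA milk IEL replicate 2 and was listed at 0 in 4 libraries. Of 11 tested receptors that use these adaptors 7 were lower in LP in ND and 7 in PA milk, with medians of -0.79 in ND and -0.45 in PA milk and 0 called. Summed over 12 dendritic cell genes, FPKM was 607 to 1829 in PA milk IEL and 200 to 532 in PA milk LP, without overlap, and 582 to 1153 in ND IEL and 252 to 1051 in ND LP, with overlap. Irf8, Cd83 and Siglech had the highest mean FPKM of the list, whose genes did not all differ in 1 direction. In PA milk 4 of 11 tested were higher in LP and 7 lower, with a median of -0.23, 0 called and 1 with separate groups (against 8.57% of all genes tested), and in ND 5 were higher and 6 lower (median -0.89, 0 called). Cd83, an activation marker of dendritic cells, differed by -0.43 ± 1.82 in PA milk and by 2.39 ± 1.82 in ND (adjusted p = 0.971 and 0.998 by limma). The part of such genes in the Tyrobp difference was not tested. Fcgr3, a receptor for IgG that needs FCER1G, was highest in PA milk LP replicate 2 (489 FPKM), which was also the highest library of Fcer1g.

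Ligands, co-receptors and transcription factors of the members were sparse or variable. Csf1 was listed at 0 in 5 libraries and reached 50.2 FPKM in PA milk LP replicate 1. Il34 was at 1 FPKM or more in 1 library. Tlr4 was so in 5 and Ly96, which encodes the TLR4 partner MD-2, in 8. Ager, which encodes the receptor RAGE that binds S100 proteins, was at 1 FPKM or more in 1 library, PA milk LP replicate 2 (75.3 FPKM). Syk, the kinase that both adaptors recruit, was so in 11 libraries with a median of 11.4 FPKM. Spi1, which encodes PU.1, was detected in all 12 with a median of 43.2 FPKM, and was highest in ND LP replicate 1 (311 FPKM), the library in which Lyz2 and Csf1r were highest. Cebpb had a median of 434 FPKM in 12 libraries and Cebpa of 3.26 FPKM, at 1 FPKM or more in 11.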

How the data were processed

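Cells were sorted, and cDNA was made with a low-input SMART-Seq kit, by the authors. They mapped reads to mm10 with TopHat2 2.1.1 and Bowtie2 2.2.8.0 and quantified genes with Cufflinks 2.2.1, per the labels and their processing notes. The deposited FPKM values are the unit used throughout. The deposited table named counts is a scaled signal: each entry is a number of reads scaled by a factor for its library and then rounded. Reads were recovered from its steps (86.4% to 96.4% of low values lay within 0.05 of a whole multiple), giving 8.75 to 14.57 M per library. Floors and depths cover counting error only.

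The test was limma 3.58.1 (R 4.3.3) on log2(FPKM + 1), with the trend option of its variance step and 4 group means over 12 libraries. It was run on the 12502 genes that reached 1 FPKM in 3 libraries or more. P-values were adjusted over these genes by Benjamini-Hochberg (threshold 0.05). Fold changes on this scale understate those of low genes. Exact permutation tests compared 3 with 3 libraries. Python 3.11.15 with scipy 1.17.1 and matplotlib 3.10.9 was used. Scripts were tested on simulated data.

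The members and all gene lists were chosen with earlier results of these data known. Named beside the members were the 3 most abundant tested genes of the macrophage, neutrophil, adaptor receptor, dendritic cell, and mast cell and eosinophil lists. Also named were partners of the members, the 3 genes most like 4 members and, where 5 or fewer genes were called, those. Mertk, Thy1, Mcpt1 and Fcer1a beside them, and the ILC3 genes in the plots, were chosen after their values were seen. Other lists are not described here, and values of 1 listed gene are not reported. Alternatives were a pseudocount of 0.1, other filters and scalings, 6 libraries alone, limma-voom, a replicate block, and leaving out libraries. Adgre1 and Spi1 were listed under older symbols.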

Additional observations from a re-analysis of the deposited data

How the results depend on the processing

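No member tested was called under any of 22 alternatives. Itgam was not among the genes tested with the filter on 6 libraries, and the difference between layers was not fitted with 6 libraries alone. Of 40 member differences, 17 kept their sign under all of them, among them S100a8 and S100a9 for PA milk in both layers, Csf1r for PA milk in LP and Tyrobp between the layers, and 23 changed sign under at least 1. Values of 1 or 2 reads and libraries with few genes limit what 3 libraries can show. The cause of the changes below was not tested.

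The number of genes called by limma for PA milk in IEL was 0 and became 1 without the 3 libraries of fewest genes (PA milk IEL, PA milk LP and ND IEL replicate 2, a choice made after seeing the data), with 0 to 1 when 1 library was left out. For PA milk in LP it was 0, and became 3 with the replicate block and 6 by limma-voom, with 0 to 8 when 1 library was left out (8 without PA milk LP replicate 3). For the difference between the layers it became 1 with the replicate block. For LP against IEL in ND it was 4, and became 1 with a pseudocount of 0.1, 0 with no filter, with the replicate block and by limma-voom, 2 with the filter on 6 libraries, 92 with 6 libraries alone, 113 without both PA milk libraries numbered 2 and 74 without the 3 libraries of fewest genes, with 0 to 65 when 1 library was left out (65 without PA milk LP replicate 2). For LP against IEL in PA milk it was 18, and became 3 with no filter, 1 with 6 libraries alone, 5 with the replicate block, 314 without both PA milk libraries numbered 2 and 355 without the 3 of fewest genes, with 1 to 289 when 1 library was left out (289 without PA milk LP replicate 2). Over all genes tested, same-numbered libraries of different groups did not deviate together (r of their deviations from the group means between -0.12 and 0.12). Not every library was closest to its own number either. The numbers were therefore not taken as pairs, although the 3 libraries of fewest genes were all numbered 2. The replicate block changed no call of a member. Scaling on leukocyte genes moved the median of all genes from -0.36 to 0.00095 for PA milk in LP.

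Without both PA milk libraries numbered 2, the log2 differences that changed sign were Csf1r -0.20, Cd14 0.98, Tyrobp -0.14 (PA milk in IEL), Cd14 1.95, Adgre1 -0.53, Tyrobp -0.049, Itgam -0.010 (PA milk in LP), Csf1r 0.054, Adgre1 -0.49, Fcer1g -0.26 (layers in PA milk). Without the 3 libraries of fewest genes, the log2 differences that changed sign were Csf1r -0.97, Adgre1 0.27 (PA milk in IEL), Cd14 1.95, Adgre1 -0.53, Tyrobp -0.049, Itgam -0.010 (PA milk in LP), Adgre1 0.31 (layers in ND), Csf1r 0.054, Adgre1 -0.49, Fcer1g -0.26 (layers in PA milk). With a pseudocount of 0.1, the log2 differences that changed sign were Adgre1 0.18 (PA milk in IEL). By limma-voom, the log2 differences that changed sign were Adgre1 1.14 (PA milk in IEL), Tyrobp -0.21 (PA milk in LP), Adgre1 0.41 (layers in ND), Lyz2 -0.37, S100a9 -0.23 (layers in PA milk). With leukocyte-gene scaling, the log2 differences that changed sign were Fcer1g -0.12 (layers in ND).

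With 1 library left out, the log2 differences that changed sign ranged for PA milk in IEL from -1.99 to 0.57 for Lyz2, -0.20 to 2.92 for Csf1r, -1.58 to 0.98 for Cd14, -2.25 to 0.91 for Adgre1, -0.14 to 1.08 for Tyrobp and -0.71 to 1.22 for Itgam. They ranged for PA milk in LP from -1.89 to 0.71 for Lyz2, -2.61 to 1.95 for Cd14, -0.53 to 2.43 for Adgre1, -0.51 to 0.87 for Tyrobp and -0.010 to 0.42 for Itgam. They ranged for layers in ND from -1.05 to 1.62 for Lyz2, -0.16 to 1.07 for Cd68, -2.86 to 0.31 for Adgre1, -0.15 to 1.94 for S100a9 and -0.23 to 0.84 for Fcer1g. They ranged for layers in PA milk from -0.68 to 1.01 for Lyz2, -0.028 to 1.19 for Cd68, -1.14 to 1.83 for Adgre1, -0.97 to 0.38 for S100a8, -0.58 to 0.80 for S100a9 and -0.30 to 0.90 for Fcer1g.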

Other observations

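Fcer1g is also a subunit of the IgE receptor of mast cells, and some mast cell genes were high in a few libraries. Mcpt1, a mast cell protease, had 235 and 472 FPKM in ND IEL replicates 1 and 3 and at most 0.482 FPKM in each of the other 10 libraries. Fcer1a, the alpha chain of the receptor, had 43.9 and 78.4 FPKM in the same libraries, 11.4 in ND LP replicate 1 and 0 in 9. In ND IEL replicates 1 and 3 Fcer1g was at 147 and 186 FPKM, below all 3 PA milk IEL libraries. The part of mast cells in the level of Fcer1g was not tested. Of 8 tested genes of mast cells and eosinophils, 4 were higher and 4 lower in PA milk IEL, with 0 called by limma. An unadjusted limma p under 0.05 was found for 2 of the 8, against 3.58% of all genes tested. Hdc, Prg2 and Gata2, the tested genes of this list with the highest mean FPKM, were highest in other libraries. Their top libraries were PA milk LP replicate 1 (261 FPKM), PA milk IEL replicate 1 (363 FPKM) and PA milk LP replicate 3 (54.0 FPKM). Mcpt1 and Fcer1a were named after their values were seen.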
